A study of Homo sapiens with 6 samples.

Results

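The genes described here are 9 targets of the transcription factor p53, MDM2, CDKN1A, SESN1, ZMAT3, TP53INP1, RRM2B, PLK3, SPATA18 and FAS. They were chosen by name, with earlier results of these data known, and each matched 1 row among the 61860 genes of the count table. RNA was sequenced in 6 libraries from the established line 5637, human bladder cancer cells grown in RPMI medium with fetal bovine serum. Of these, 3 libraries were labelled siNC, the control group, and 3 were labelled siYTHDC1, read here as silencing of the nuclear m6A reader YTHDC1. All 6 carry the same treatment label, which names both transfection and infection, and the control is described with the word plasmid, so the reagent is not clear. Directions below are those of the libraries labelled siYTHDC1, with the siNC libraries as the reference.

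The tumour suppressor p53 binds DNA and switches on genes that halt the cell cycle, repair DNA, adjust metabolism or lead to cell death. MDM2 is itself a target and encodes the ubiquitin ligase that marks p53 for degradation, so the pathway holds its own feedback loop. Many of these genes also respond to other regulators, among them the p53 relatives p63 and p73.

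The sequences through which p53 is known to act on some of these genes could be shown for members with such a sequence near a start site. RefSeq start-site windows on GRCh38.p14, each from 250 bases before to 50 bases after a start, were at hand for 7 of the 9 members (15 windows). They were searched on both strands for the p53 response element, 2 adjoining copies of a 10-base consensus, with the C and the G of the core CNNG of each copy required and at most 2 mismatches elsewhere. MDM2 and FAS held a match (2 of 7, 28.6%), against 98 of 27305 genes with a window (0.359%) and 3 of 34 other p53 targets (8.82%). With 3 mismatches allowed, an option chosen after the data were seen, SESN1 was added and the share over all genes was 1.37%. With at most 1 mismatch, a planned setting, 0 of 7 members held a match. At that setting 1 of 34 other p53 targets (2.94%) and 19 of 27305 genes (0.0696%) did. A match of letters is a description and shows no binding, and these genes are known as p53 targets partly through such elements. Sequence beyond these windows was not searched, so a gene without a match here may still hold an element farther away. The elements of members, and those of the other targets with at most 2 mismatches, are shown with the 4-base core of each copy in capitals.
MDM2: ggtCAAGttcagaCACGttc
FAS: ggaCAAGccctgaCAAGcca
SESN1: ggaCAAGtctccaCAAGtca
AEN: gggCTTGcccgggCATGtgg
DDB2: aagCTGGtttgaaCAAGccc
GLS2: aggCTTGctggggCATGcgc

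The MDM2 element lies at chr12:68808923-68808942 on the plus strand, in an intron, and begins 94 bases before the nearest downstream start used here. It sits at the intronic promoter of MDM2, which is the one known to answer to p53. The FAS element (chr10:88991309-88991328, plus strand) begins 122 bases before an alternative start, in bases that GENCODE 29 annotates as exonic in at least 1 transcript. The SESN1 element (chr6:109009018-109009037, minus strand) is intronic and begins 49 bases before a start. The windows of MDM2 and FAS are shown because their genes carry the same kind of element and moved in opposite directions. They are chr12:68808767-68809066 and chr10:88991181-88991480, both on the plus strand, with the match found by the search in capitals. Runs that lack a required core base could not match, so further elements may stand in lower case.
MDM2: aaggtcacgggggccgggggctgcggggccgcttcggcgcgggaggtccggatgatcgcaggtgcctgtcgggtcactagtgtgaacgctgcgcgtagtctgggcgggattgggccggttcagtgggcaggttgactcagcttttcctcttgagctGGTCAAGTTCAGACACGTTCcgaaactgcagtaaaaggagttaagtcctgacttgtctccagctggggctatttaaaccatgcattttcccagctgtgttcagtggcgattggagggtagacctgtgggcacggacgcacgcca
FAS: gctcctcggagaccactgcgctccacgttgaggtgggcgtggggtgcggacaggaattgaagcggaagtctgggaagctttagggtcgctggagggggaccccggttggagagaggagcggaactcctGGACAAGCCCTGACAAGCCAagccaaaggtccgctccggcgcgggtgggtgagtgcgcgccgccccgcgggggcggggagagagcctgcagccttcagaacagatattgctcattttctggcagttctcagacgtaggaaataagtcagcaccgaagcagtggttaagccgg

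All 9 members passed the filter on low counts, and 9 of 9 were called in edgeR's quasi-likelihood test at an adjusted p under 0.05: 5 fell (MDM2, CDKN1A, SESN1, TP53INP1, RRM2B) and 4 rose (ZMAT3, PLK3, SPATA18, FAS). Among all 17372 genes tested, 53.4% were called, 26.3% as rises and 27.1% as falls, so a call by itself says little about these genes. Both shares grew with level. At mean levels of 10 to 50 CPM, where most members lie, 28.1% of tested genes rose and 34.1% fell. At 50 CPM or more 36.3% rose and 39.4% fell. For well-expressed genes, here and in the lists below, the shares over all genes are thus a low reference. The log2 fold changes of the members ran from -0.80 for CDKN1A to 0.93 for SPATA18. The median was -0.49 over the members and -0.00041 over all genes tested, and the median absolute change was 0.56 and 0.30. Because the members and the lists below were chosen with earlier results of these data known, such contrasts with all genes are not independent of the choice. In each of the 9 genes the groups did not overlap, as was the case for 59.3% of all genes tested. The 9 members moved in both directions.

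Levels are given as counts per 1000000 counts after TMM scaling (CPM), with libraries in the order 1 to 3, and fold changes as log2 values with the standard error (SE). CDKN1A, at chr6:36676460-36687339 on hg38, encodes p21, the inhibitor of cyclin-dependent kinases that carries out much of the p53-driven arrest. It had 413, 417 and 408 CPM in the siNC libraries and 240, 243 and 228 CPM in the libraries labelled siYTHDC1. All 3 control libraries lay far above the other 3, and the spread within each group was small. The means were 412 ± 4.47 and 237 ± 8.31 CPM (SD, n = 3 each), a 1.74-fold lower level (log2 fold change -0.80 ± 0.03, SE; edgeR adjusted p = 3.64e-18).

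MDM2 (chr12:68808176-68850686) had 39.2, 41.0 and 39.2 CPM in the siNC libraries and 25.2, 24.8 and 23.6 CPM in the libraries labelled siYTHDC1. The control libraries were within 2 CPM of each other and the groups were well apart. The means of 39.8 ± 1.05 and 24.5 ± 0.861 CPM (SD, n = 3 each) differ 1.62-fold (log2 fold change -0.70 ± 0.06, SE; edgeR adjusted p = 5.52e-10). PPM1D, another p53 target whose phosphatase product also damps p53, stood at nearly the same levels, 39.8 ± 1.62 and 24.6 ± 0.691 CPM (SD, n = 3 each), and changed by -0.70 ± 0.07 (SE). Of the exonic bases of MDM2, 9.21% lie under exons of other genes, 3.30% on the same strand. One of the neighbours on the other strand is the carboxypeptidase M gene, which rose (log2 fold change 0.80), opposite in direction to MDM2.

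SESN1 (chr6:108986437-109094819) encodes sestrin 1, a stress protein that restrains mTORC1 signalling. It had 20.6, 22.9 and 23.1 CPM in the siNC libraries and 15.8, 15.4 and 14.4 CPM in the libraries labelled siYTHDC1. Library 1 was the lowest of the controls and still lay above each library of the other group. The change was -0.55 ± 0.08 on the log2 scale (SE; edgeR adjusted p = 2.72e-06).

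RRM2B (chr8:102204502-102239118) encodes p53R2, a small subunit of ribonucleotide reductase that supplies deoxynucleotides outside S phase. Its siNC libraries were nearly level, at 37.4, 36.9 and 37.0 CPM, and the libraries labelled siYTHDC1 had 24.1, 27.0 and 24.7 CPM. The fall was 1.47-fold (log2 fold change -0.56 ± 0.07, SE; edgeR adjusted p = 6.52e-08). TP53INP1 (chr8:94925972-94949411), which encodes a stress-induced nuclear protein that promotes p53 activity and autophagy, went from 65.4, 60.5 and 63.3 CPM to 43.8, 45.6 and 45.3 CPM. This was the smallest of the 5 falls, at -0.49 ± 0.05 on the log2 scale (SE; edgeR adjusted p = 6.45e-09).

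PLK3 (chr1:44800225-44805990), a polo-like kinase linked to the stress response, rose 1.89-fold. It had 25.1, 25.8 and 21.9 CPM in the siNC libraries and 45.1, 44.0 and 48.5 CPM in the libraries labelled siYTHDC1. Library 3 was the lowest of the controls and the highest of the other group, and the groups were far apart. The rise came to 0.92 ± 0.07 on the log2 scale (SE; edgeR adjusted p = 8.46e-12). SPATA18 (chr4:52051331-52097292), which encodes a protein of mitochondrial quality control, was the scarcest member, since the controls held 127, 120 and 110 of its counts and the libraries labelled siYTHDC1 held 209, 229 and 228. Its level rose from 3.42 ± 0.212 to 6.51 ± 0.466 CPM (SD, n = 3 each), or by 0.93 ± 0.16 on the log2 scale (SE; edgeR adjusted p = 1.2e-05), with the widest standard error of the 9.

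FAS (chr10:88990582-89015785) encodes the death receptor CD95. It had 25.2, 23.8 and 25.2 CPM in the siNC libraries and 30.7, 34.5 and 33.3 CPM in the libraries labelled siYTHDC1, a 1.33-fold rise (log2 fold change 0.41 ± 0.07, SE; edgeR adjusted p = 1.62e-05). Exons of ACTA2 on the other strand cover 8.93% of the exonic bases of FAS. ACTA2 also rose, but from only 1.85 ± 0.411 to 4.48 ± 0.347 CPM (SD, n = 3 each). The part of shared reads in the FAS value was not tested. ZMAT3 (chr3:179017223-179072279), which encodes an RNA-binding zinc finger protein, showed the smallest change, from 14.3, 15.7 and 14.9 CPM to 18.6, 18.3 and 17.6 CPM. The change was 0.28 ± 0.08 on the log2 scale (SE), and the edgeR adjusted p of 0.00636 rose to 0.0381 without siNC replicate 1.

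**Figure D1:**
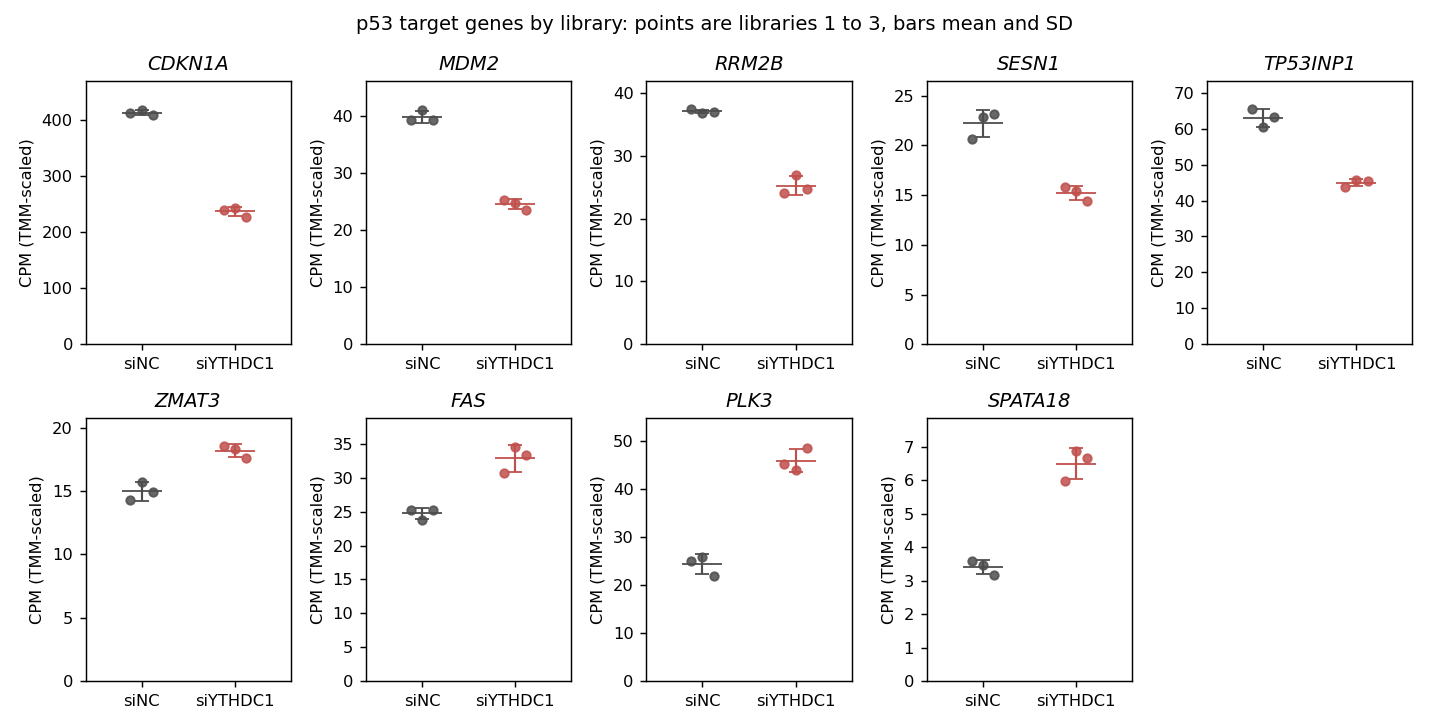
Level of each of the 9 p53 target genes in CPM (TMM-scaled, vertical axis from 0) in the libraries labelled siNC and siYTHDC1; points are the 3 libraries of a group in the order 1 to 3, horizontal bars the mean and error bars the SD. The upper row holds the 5 genes that fell, CDKN1A from 412 to 237 CPM among them, and the lower row the 4 that rose, and in no gene do the groups overlap.

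Replicates of a group were close together in each member. The coefficient of variation ran from 0.772% for RRM2B to 8.60% for PLK3 over the siNC libraries and from 2.15% for TP53INP1 to 7.16% for SPATA18 over the libraries labelled siYTHDC1. In the 6 fits that left out 1 library, CDKN1A stayed between -0.82 and -0.77, MDM2 between -0.72 and -0.67, PLK3 between 0.85 and 0.96 and SPATA18 between 0.88 and 0.99 on the log2 scale. Of the 75-base words in their transcripts, MDM2 shared 3.27% and ZMAT3 0.453% with other genes, and the other 7 members shared 0%.

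Per kilobase of annotated exon, the order of the levels changed. In the siNC libraries it was CDKN1A at 135 ± 1.46 CPM per kb (SD, n = 3), then TP53INP1 at 11.1 ± 0.437, PLK3 at 6.98 ± 0.600, RRM2B at 6.69 ± 0.0517, FAS at 5.82 ± 0.196, SESN1 at 4.34 ± 0.272, MDM2 at 3.00 ± 0.0788, ZMAT3 at 1.55 ± 0.0765 and SPATA18 at 0.691 ± 0.0430 CPM per kb. Of these neighbours only PLK3 and RRM2B overlapped. In the libraries labelled siYTHDC1, PLK3 stood in the second place at 13.2 ± 0.679 CPM per kb (SD, n = 3), above TP53INP1 at 7.92 ± 0.170 and FAS at 7.73 ± 0.454, which overlapped with each other. RRM2B at 4.55 ± 0.277 and SESN1 at 2.97 ± 0.139 came next. ZMAT3 at 1.88 ± 0.0529 and MDM2 at 1.85 ± 0.0648 CPM per kb overlapped there as well, whereas in the controls MDM2 lay above ZMAT3. Exon lengths are those of all annotated transcripts merged, which lowers the values of genes with many transcripts, such as MDM2 with 34.

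**Figure D2:**
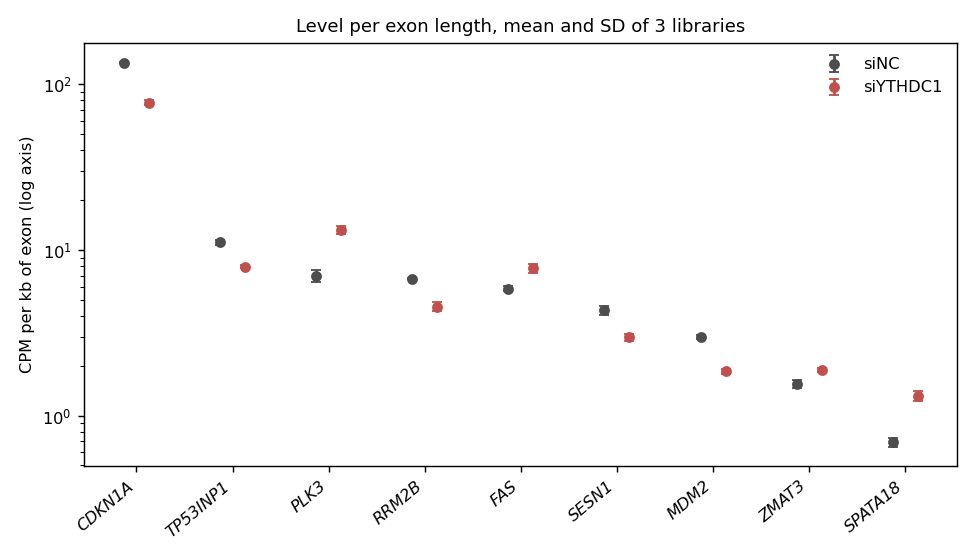
Level of each member in CPM per kb of merged exon (log axis), mean and SD of the 3 libraries labelled siNC (grey) and the 3 labelled siYTHDC1 (red), ordered by the siNC level. CDKN1A stands far above the rest in both groups (135 and 77.7 CPM per kb), and PLK3 passes TP53INP1 in the libraries labelled siYTHDC1.

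The relatives of p53 moved in opposite directions. TP73 fell from 42.4 ± 5.40 to 26.0 ± 2.53 CPM (SD, n = 3 each), a change of -0.71 ± 0.08 on the log2 scale (SE; edgeR adjusted p = 2.71e-08). TP63, which is abundant in these cells as in other basal epithelial cells, rose slightly, from 205 ± 7.90 to 231 ± 4.82 CPM (SD, n = 3 each; 0.17 ± 0.03, SE). MDM4, the relative of MDM2 that blocks p53 without degrading it, was not called (0.14 ± 0.07, SE; edgeR adjusted p = 0.103), and its libraries overlapped. Without siYTHDC1 replicate 1 it passed (0.21; edgeR adjusted p = 0.0159, the range over the alternatives reaching 0.337). Among 22 genes of the p53 family and its regulators 5 rose and 13 fell (22.7% and 59.1%, against 26.3% and 27.1% of all genes tested; median log2 fold change -0.17). TP53BP1, the DNA damage adaptor 53BP1, and PPP1R13B, which encodes the p53 cofactor ASPP1, fell by 0.64 and 0.62 on the log2 scale. Exons of a gene on the other strand cover 28.7% of the exonic bases of TP53BP1.

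**Figure D3:**
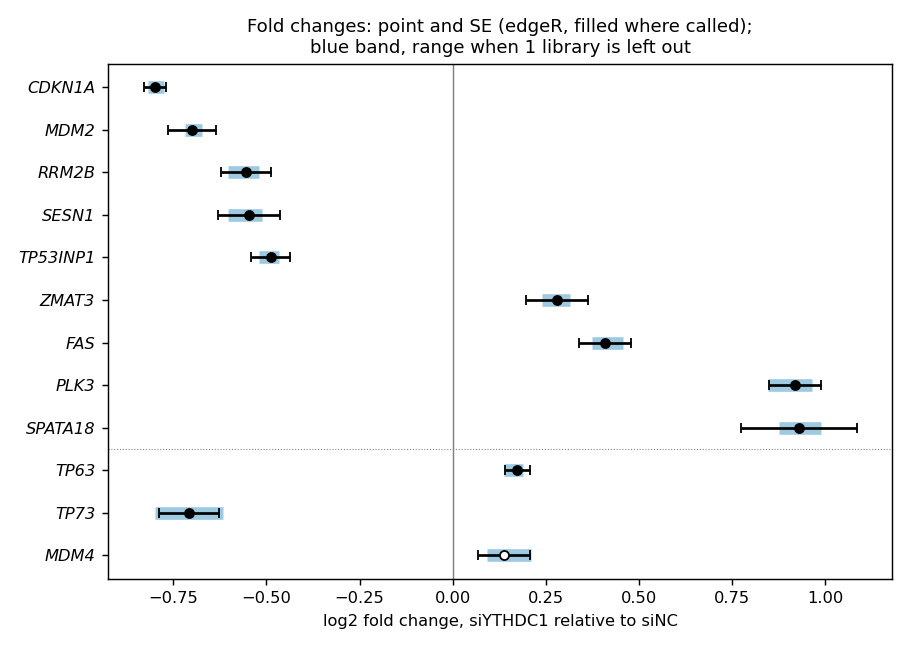
Log2 fold changes of the 9 members and, under the dotted line, of TP63, TP73 and MDM4 (libraries labelled siYTHDC1 against siNC); points and bars are the edgeR value and its SE, filled where called, and blue bands the range over 6 fits that each left out 1 library. CDKN1A at -0.80, MDM2 at -0.70 and TP73 at -0.71 lie together on the left, SPATA18 at 0.93 and PLK3 at 0.92 on the right, and no band of a member reaches 0.

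Relatives of the members, mostly not p53 targets, give a second view of each family. SESN2, the sestrin that is also a target of the stress factor ATF4, rose from 40.2 ± 1.87 to 59.6 ± 0.608 CPM (SD, n = 3 each), or by 0.57 ± 0.05 on the log2 scale (SE), opposite to SESN1. SESN3 was scarce and not called (-0.26 ± 0.23, SE). RRM1 and RRM2, the ribonucleotide reductase subunits of S phase, were not called, with log2 fold changes of 0.0049 ± 0.036 and -0.0040 ± 0.035 (SE). Of the exonic bases of RRM2, 20.2% are shared with another gene on the same strand. TP53INP2 was not called either (-0.0044 ± 0.045, SE). Differences between relatives were not tested.

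Among the polo-like kinases, PLK3 rose, PLK1 fell by 0.53 and PLK2, itself a p53 target, fell by 0.32 on the log2 scale, while PLK4 was not called (0.02 ± 0.06, SE). The other inhibitors of the p21 family both fell. CDKN1B, which encodes p27, went from 84.7 ± 0.884 to 67.3 ± 2.52 CPM (SD, n = 3 each; -0.33 ± 0.04, SE). CDKN1C, which encodes p57, changed by -0.49 ± 0.14 (SE), but siNC replicate 3 lay within the range of the other group and the call was lost without siNC replicate 2 (-0.33; edgeR adjusted p = 0.0530) and in DESeq2 (adjusted p = 0.0953).

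Of 42 other p53 targets, listed by role, 41 were tested: 17 rose and 12 fell (41.5% and 29.3%, against 26.3% and 27.1% of all genes tested), with a median log2 fold change of 0.02. EDA2R had 0 counts in each library. In the cell cycle and feedback list 3 of 7 rose and 4 fell. TRIM22, which interferon also induces, fell from 19.2 ± 0.227 to 6.73 ± 0.515 CPM and SFN, which encodes the G2 checkpoint protein 14-3-3 sigma, from 280 ± 6.98 to 192 ± 4.97 CPM, while the antiproliferative gene BTG2 rose from 52.6 ± 0.960 to 75.9 ± 2.45 CPM (SD, n = 3 each). In the DNA repair list 3 of 5 rose and 1 fell. DDB2, a damage sensor of nucleotide excision repair, rose by 0.58 ± 0.05 and POLH, a translesion polymerase, by 0.38 ± 0.07 (SE), while the helicase gene ASCC3 fell by 0.33 on the log2 scale. POLK, another translesion polymerase, was called at 0.26 ± 0.10 (SE; edgeR adjusted p = 0.0347), but its groups overlapped. Its call was lost without siNC replicate 1 (edgeR adjusted p = 0.0745), siNC replicate 3 (0.141), siYTHDC1 replicate 1 (0.0635) or siYTHDC1 replicate 3 (0.367, with a change of 0.12), and in DESeq2 (adjusted p = 0.0525) and limma-voom (adjusted p = 0.0505).

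Death signalling genes rose in 6 of 11 tested members of their list and fell in 3 (54.5% and 27.3%, against 26.3% and 27.1% of all genes tested; median log2 fold change 0.37). PERP, a desmosomal protein gene that p53 and p63 both induce, rose from 485 ± 5.96 to 962 ± 23.7 CPM (SD, n = 3 each). BBC3, which encodes the BH3-only protein PUMA, rose from 17.1, 16.7 and 20.7 CPM to 32.6, 33.3 and 28.8 CPM, and the death receptor gene TNFRSF10A from 19.3 ± 0.340 to 31.3 ± 0.660 CPM (SD, n = 3 each). TP53I3, an oxidoreductase gene, fell from 15.4 ± 1.66 to 9.33 ± 0.415 CPM (SD, n = 3 each). Downstream of FAS, 3 of 7 tested signalling genes rose and 2 fell (42.9% and 28.6%, against 26.3% and 27.1% of all genes tested; median log2 fold change -0.02). The adaptor gene FADD fell by 0.54 on the log2 scale, while BID, which links the receptor to mitochondria, rose by 0.45 ± 0.03 (SE). Of the exonic bases of FADD, 54.9% lie under exons of a gene on the other strand. The ligand gene FASLG had at most 1 count in a library and was not tested.

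In the metabolism and autophagy list 1 of 8 was called, SESN2, as a rise. That is 12.5% rising and 0% falling, against 26.3% and 27.1% of all genes tested. GLS2 and SCO2 of this list had means under 1 CPM, a level at which 11.1% of tested genes rose and 6.31% fell. Of the exonic bases of SCO2 and TIGAR, 100% and 42.6% are shared with other annotated genes on the same strand. Among the remaining targets 4 of 10 rose and 4 fell (40% and 40%). GDF15, a stress cytokine that ATF4 and CHOP induce as well, rose from 19.8, 20.4 and 21.2 CPM to 60.5, 59.1 and 57.5 CPM, and FBXO22, a ubiquitin ligase subunit gene, rose by 0.65 ± 0.05 (SE) on the log2 scale. CYFIP2 fell by 1.12 and BLOC1S2 by 0.83 on the log2 scale. Of the 3 other targets shown above with an element, AEN and DDB2 were called as rises and GLS2, at a mean under 1 CPM, was not called.

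**Figure D4:**
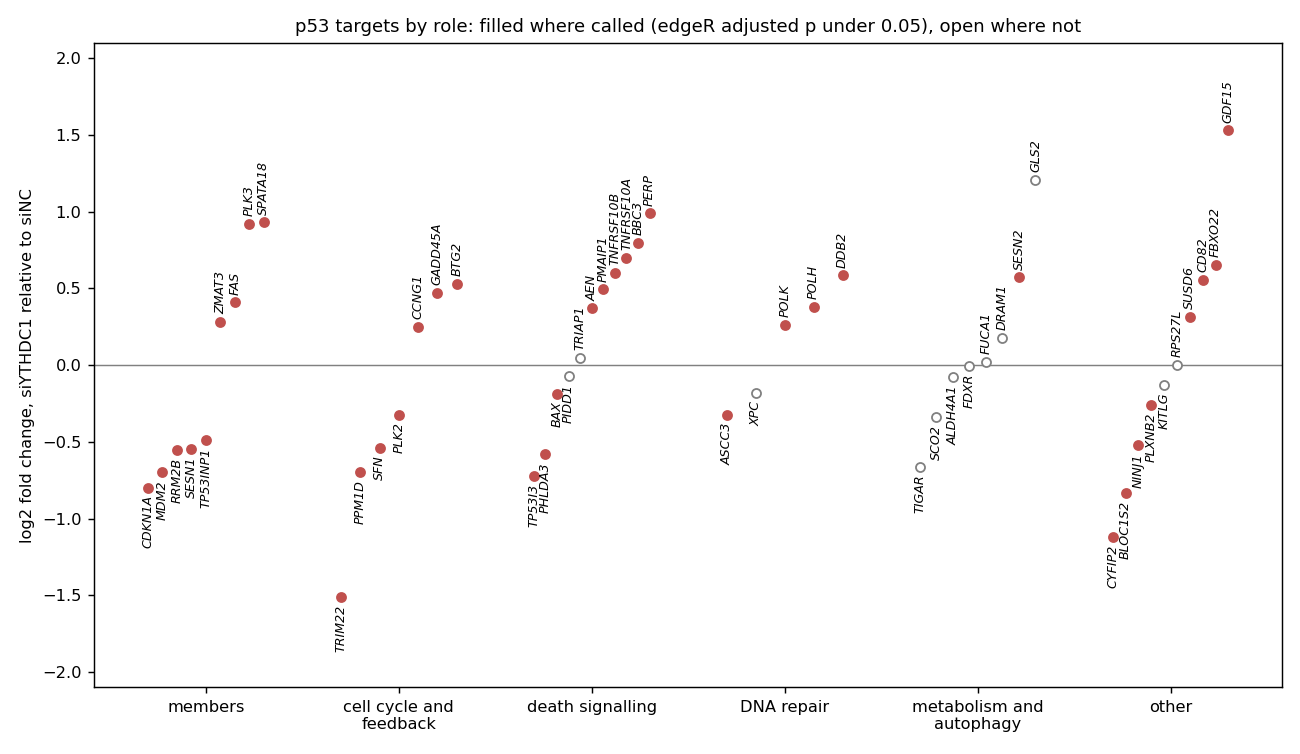
Log2 fold changes of the 9 members and of the 41 other p53 targets tested (libraries labelled siYTHDC1 against siNC), each point a gene, grouped by role and ordered by value within a role. Filled points were called in edgeR at an adjusted p under 0.05 and open points were not; each role but metabolism and autophagy holds called genes on both sides of 0, from TRIM22 at -1.51 to GDF15 at 1.53.

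Cell cycle genes that p53 is known to lower through p21 and the DREAM repressor complex were called in both directions, with 6 of 21 rising and 7 falling (28.6% and 33.3%, near the 26.3% and 27.1% of all genes tested; median log2 fold change -0.04). CDC20 fell by 0.57, PLK1 by 0.53 and TOP2A by 0.49 on the log2 scale, and MYBL2 rose by 0.51 ± 0.03 (SE). PRC1, counted among the uncalled genes, had means of only 1.15 CPM (siNC) and 1.70 CPM (siYTHDC1). Of its exonic bases, 57.6% are shared with another gene on the same strand.

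By their profile over the 6 libraries, MDM2 and CDKN1A were each other's nearest member (Euclidean distance 0.134 between centred log2 CPM values). The same held for TP53INP1 and RRM2B (0.141), for PLK3 and SPATA18 (0.193) and for ZMAT3 and FAS (0.276). Among genes outside the lists with a mean of at least 5 CPM, the nearest was, for example, MAVS to CDKN1A (distance 0.0480), the splicing regulator gene TRA2B to MDM2 (0.0506), EVA1A to PLK3 (0.0779), THRB to SPATA18 (0.0634) and PPARA to FAS (0.0495). With 6 libraries in 2 groups, such closeness mainly reflects a like fold change.

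Total counts were 33223480 to 35607577 per library, and each pair of replicates differed by more than sampling noise (chi-square per degree of freedom from 3.72 to 5.79). The row of YTHDC1 did not separate the groups, since siNC replicates 1 to 3 held 50, 786 and 55 of its counts and siYTHDC1 replicates 1 to 3 held 161, 18 and 14. Its log2 fold change of -2.20 ± 0.69 (SE) became 0.31 without siNC replicate 2 (edgeR adjusted p = 0.691). Without siNC replicate 2 and siYTHDC1 replicate 1, a choice made after the data were seen, 9 of 9 members were called with 4 rises and 5 falls, as with all libraries. Over the alternative fits, that one among them, 8145 to 9308 of all genes tested were called. Of 11 epithelial and urothelial markers, 9 had a mean of at least 1 CPM, and their summed level was 10745 to 10923 CPM in the siNC libraries and 6164 to 6278 CPM in the libraries labelled siYTHDC1. Most of that sum is keratin: KRT19 went from 4442 to 2607, KRT8 from 1993 to 1044, KRT7 from 1801 to 874 and KRT5 from 1548 to 655 mean CPM. Of 10 markers tested, 6 fell (5 keratin genes and GATA3) and 2 rose, PPARG from 93.3 to 184 and EPCAM from 181 to 200 mean CPM. These are 60% and 20%, against 27.1% falling and 26.3% rising among all genes tested. Among tested genes at 50 CPM or more, where most of these markers lie, the shares were 39.4% and 36.3%. CDH1 (log2 fold change -0.0096) and UPK2 were not called, and UPK2 and UPK3A, the uroplakin genes, were under 1 CPM. Summed fibroblast markers were 78.9 to 84.9 against 92.3 to 97.1 CPM, nearly all from COL1A1, with DCN at 0 in each library and 4 of 6 markers under 1 CPM. Immune markers summed to 6.62 to 8.03 against 4.71 to 6.50 CPM, nearly all from CD14, with CD3E at 0, and endothelial markers to 4.65 to 7.14 against 5.43 to 6.81 CPM. The part of the keratin shift in the results was not tested. In bulk RNA, fewer cells expressing a gene and less RNA per cell cannot be told apart.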

How the data were processed

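Total RNA of 5637 cells was extracted with a column kit and made into directional libraries, per the labels' protocols. The authors deposited raw read counts per Ensembl gene, 1 column per library. Reads were placed on hg38, per the submitters' processing notes. Aligner, counter, annotation release and strand setting: not given in the sources used here. Columns were assigned by matching names to sample titles; the part S1 in the siYTHDC1 column names is not explained by the labels, and 0 columns stayed unused. Symbols were looked up by Ensembl identifier (61757 genes) and GENCODE 29 (101); 2 stayed unnamed. GENCODE 29 gave positions and exons, RefSeq the start-site windows.

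Counts were tested with edgeR 4.0.16 (R 4.3.3): quasi-likelihood test, TMM scaling, default low-count filter, group as the only term, Benjamini-Hochberg adjustment over 17372 genes, threshold 0.05, 2-sided. SE is the absolute log2 fold change divided by the square root of F. The procedure was tested on simulated data. Alternatives were other scalings, DESeq2 1.42.0, limma-voom (limma 3.58.1), other filters, a replicate block and left-out libraries. Named genes were the members, from each list up to 4 called genes (largest absolute change, mean 1 CPM or more), TP63, TP73, MDM4, the relatives, and each member's nearest profile; some genes that met the rule are left out of the text. EDA2R, FASLG, GLS2, SCO2, TIGAR, AEN, PRC1, ACTA2, the carboxypeptidase M gene and the markers lie outside that rule. They were named after their values were seen. The members and lists were chosen with earlier results of these data known. Nothing in the labels says that replicates came from separate cultures, so p-values cover only library-to-library spread, possibly technical. A search for p53 elements within 5 kb of each start was planned; no genome sequence was used here, and start-site windows took its place.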

Additional observations from a re-analysis of the deposited data

How the results depend on the processing

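In each of the 15 alternatives 9 of 9 members were called, with 4 rises and 5 falls, and no member changed direction. The other p53 targets called ranged from 28 to 30 (16 to 17 rises, 12 to 13 falls) and all genes called from 8145 to 9308. The replicate block gave 9 members, 29 other targets and 9227 genes called. Same-numbered libraries did not deviate together (r of 0.0055, -0.0065 and -0.017 across genes). These correlations cannot show whether the libraries were prepared as pairs. With at most 1 mismatch, 0 members held a p53 element; the 5 kb and 2 kb searches were not run. RRM2 and TP53INP2, both uncalled and near 0, changed sign with upper-quartile scaling (0.0063 and 0.0059), without scaling (0.0065 and 0.0061) and with a filter of 1 CPM in 3 libraries (0.00078 and 0.00040). With 1 library left out, RRM2 ran from -0.030 to 0.021, RRM1 from -0.045 to 0.034 and YTHDC1 from -4.17 to 0.31 (without siNC replicate 2); the cause was not tested. Low counts limit SPATA18 most among the members.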
